A study of Mus musculus with 36 samples.

Results

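At risk loci of human Alzheimer's disease, 10 genes that handle lipids, sort endocytosed membrane or signal in microglia were followed across mouse hippocampus: Apoe, Clu, Abca7, Sorl1, Bin1, Picalm, Cd33, Inpp5d, Plcg2 and Ms4a6d. They were chosen by symbol, with earlier results of these data known, and all 10 were found among the 24421 gene symbols of the deposited tables. All 10 had a mean normalised count of at least 10, the filter for testing, in each of the 4 comparisons. None of the 10 passed the test over all genes in any comparison. The largest differences that missed it lay in Cd33, Inpp5d, Plcg2 and Ms4a6d, called here the microglial signalling genes. That name rests on prior knowledge, and Plcg2 levels here most resembled those of Slc14a1, C4b and Chst11. Differences of Cd33, Inpp5d and Ms4a6d between APP/PS1 and littermate mice were smaller when 1 APP/PS1 library was left out.

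Apolipoprotein E carries cholesterol and phospholipid between brain cells on lipoprotein particles made mainly by astrocytes, and clusterin is another astrocytic apolipoprotein. Lipoproteins and the amyloid precursor protein enter cells through receptors that travel between clathrin-coated pits, endosomes and the cell surface, a route served by the products of Picalm, Bin1 and Sorl1. In the brain, Cd33, Inpp5d, Plcg2 and Ms4a6d are best known from microglia, where receptors such as TREM2 sense lipids and pass the signal on through phosphoinositides.

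The nanoligomer-treated old mice, the old mice and the young mice were C57BL/6, aged 18, 18 and 8 months. The nanoligomer-treated APP/PS1 mice, the APP/PS1 mice and the non-carrier littermates were all aged 4 months. APP/PS1 mice carry amyloid transgenes, and the sources used here give neither the line nor the promoters. A nanoligomer is a short synthetic nucleic acid analogue that binds a chosen sequence, and the series title names NF-κB and NLRP3, regulators of inflammation, as what was lowered. The labels give the treatment of the other 4 groups as control, and the sources used here give no dose, duration or sequence. Each group had 6 RNA sequencing libraries of polyadenylated hippocampal RNA, 3 of females and 3 of males. The labels do not say that each library is a separate animal, so p-values measure the spread between these libraries.

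The 35 libraries used held 27.6 to 46.3 M reads. Female 3 of the treated APP/PS1 group held 0.913 M reads and was left out of every result that does not name it, which leaves 5 libraries in that group. In it 7 of the 10 genes had no read, Abca7 had 1, Picalm 117 and Sorl1 173. None of 10 hippocampal marker genes was at 0 in all libraries, and their summed level lay between 233 and 961 CPM (reads scaled to an equal library total). Markers of neighbouring tissue varied more: 10 striatal markers summed to between 222 and 3159 CPM, and 10 choroid plexus markers to between 13.97 and 4174 CPM. In bulk tissue, fewer cells of a type and less RNA per cell cannot be told apart.

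The promoters of the 3 microglial signalling genes with a listed start site are shown because these genes stood high together in 1 library described below, and that of Picalm is set beside them as the steadiest gene. The set of RefSeq (GRCm38.p6) promoters used here holds start sites for 7 of the 10 genes: Apoe, Picalm, Sorl1, Cd33, Abca7, Inpp5d and Plcg2. Absence of the other genes from this set does not mean that RefSeq has no start site for them. Each window runs from 250 bases before to 50 bases after the start, 5′ to 3′ on the gene's strand. Capitals mark GAGGAA or its reverse complement TTCCTC, core letters bound by PU.1, a transcription factor of the myeloid lineage, searched on both strands. The Inpp5d window is chr1:87620062-87620361 on the plus strand, and the Cd33 window is chr7:43533122-43533421 on the minus strand. The Plcg2 window is chr8:117498025-117498324 and the Picalm window chr7:90129963-90130262, both on the plus strand.
Inpp5d: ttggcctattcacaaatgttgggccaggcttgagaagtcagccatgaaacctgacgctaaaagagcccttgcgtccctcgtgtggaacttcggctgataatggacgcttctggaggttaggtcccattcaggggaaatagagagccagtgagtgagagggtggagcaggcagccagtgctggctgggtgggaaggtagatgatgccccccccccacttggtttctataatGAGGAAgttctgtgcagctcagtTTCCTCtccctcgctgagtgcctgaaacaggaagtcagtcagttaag
Cd33: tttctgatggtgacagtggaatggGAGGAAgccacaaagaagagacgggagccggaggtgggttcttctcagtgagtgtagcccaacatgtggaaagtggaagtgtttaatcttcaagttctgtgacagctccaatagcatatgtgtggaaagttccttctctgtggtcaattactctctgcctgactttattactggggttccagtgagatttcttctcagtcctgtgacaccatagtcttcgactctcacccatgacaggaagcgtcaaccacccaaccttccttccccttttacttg
Plcg2: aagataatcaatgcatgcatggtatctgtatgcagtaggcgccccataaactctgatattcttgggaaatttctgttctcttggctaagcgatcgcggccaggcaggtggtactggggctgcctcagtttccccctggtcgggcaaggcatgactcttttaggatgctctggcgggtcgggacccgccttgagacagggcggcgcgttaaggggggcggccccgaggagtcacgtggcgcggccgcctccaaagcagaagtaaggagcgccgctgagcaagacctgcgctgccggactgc
Picalm: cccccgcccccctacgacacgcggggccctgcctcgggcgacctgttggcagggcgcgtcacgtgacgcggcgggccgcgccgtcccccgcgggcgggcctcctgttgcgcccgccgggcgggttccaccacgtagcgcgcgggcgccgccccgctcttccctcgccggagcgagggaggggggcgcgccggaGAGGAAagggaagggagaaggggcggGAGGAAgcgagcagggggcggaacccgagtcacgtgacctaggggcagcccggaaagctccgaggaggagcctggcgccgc

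The letters GAGGAA occur in 28.3% of the 32851 promoter windows of the table. They stood 2 times in the Inpp5d window, 1 time in that of Cd33, 2 times in that of Picalm and not in that of Plcg2. Of the 3 start sites of Apoe, the first held 2, the second none and the third 1, and the windows of Sorl1 and Abca7 held none. TCACGTGA, core letters of the motif bound by the lysosomal regulator TFEB, occur in 0.974% of windows. They stood 2 times in the Picalm window and not in the windows of the other 6 genes. The NF-κB consensus matched none of these windows, against 8.46% of all windows. A match is a run of letters and not a shown binding site.

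The 10 genes spanned a wide range of levels. As RPKM, CPM per kilobase of annotated exon, Apoe averaged 843 ± 126 and Clu 359 ± 46.0 (mean ± SD, n = 35 libraries). Bin1, a membrane-bending adaptor, followed at 81.5 ± 7.23 RPKM and Sorl1, a sorting receptor of the endosome, at 21.7 ± 5.02. The clathrin adaptor gene Picalm averaged 7.69 ± 0.526 RPKM and the lipid transporter gene Abca7 6.53 ± 0.953. The microglial signalling genes lay lower: the phosphoinositide phosphatase gene Inpp5d at 2.44 ± 0.590 RPKM, the phospholipase gene Plcg2 at 1.88 ± 0.563, the sialic acid receptor gene Cd33 at 0.885 ± 0.269 and Ms4a6d at 0.394 ± 0.307. The ranges over libraries did not meet among Apoe, Clu, Bin1, Sorl1 and Picalm, and neighbours from Picalm downwards in this order had ranges that met. Exon lengths came from GENCODE on GRCm38, since the annotation the authors counted on is not given in the sources used here.

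**Figure D1:**
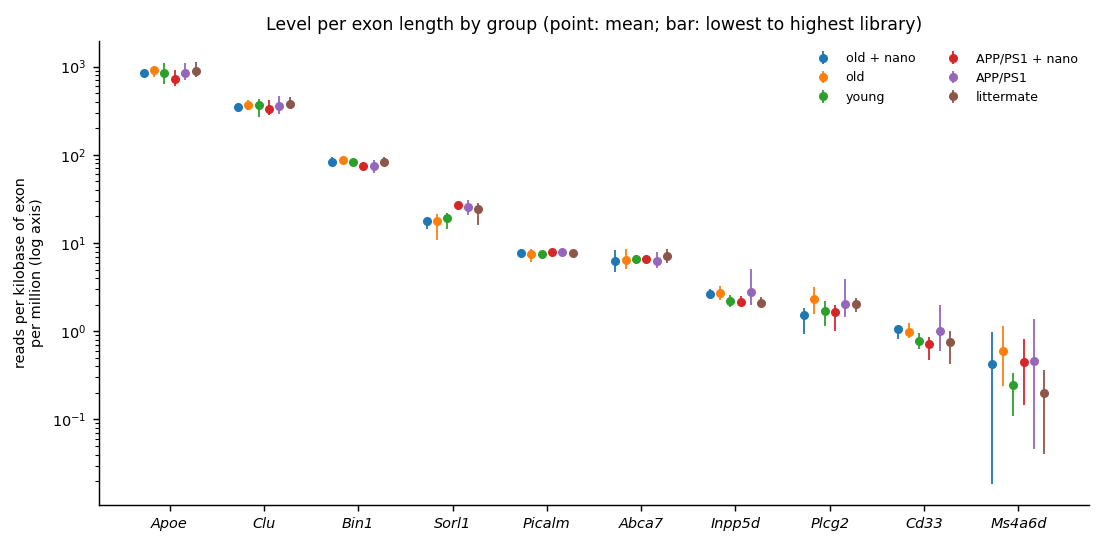
RPKM (CPM per kilobase of exon) on a log axis, for the 10 genes ordered by their mean over 35 libraries. Points are group means and bars run between the lowest and highest library of a group; Apoe averaged 843 and Ms4a6d 0.394 RPKM.

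On GRCm38 the lipid genes are Apoe at chr7:19696109-19699188, Clu at chr14:65968483-65981547 and Abca7 at chr10:79996494-80015572. The endocytic genes are Sorl1 at chr9:41964720-42124297, Bin1 at chr18:32377230-32435737 and Picalm at chr7:90130213-90213465. The microglial signalling genes are Cd33 at chr7:43524216-43544428, Inpp5d at chr1:87620312-87720507, Plcg2 at chr8:117498291-117635142 and Ms4a6d at chr19:11586604-11604849. All 10 are annotated as protein-coding, and a value counts reads over the whole gene. Exons of Bin1 share 256 bases with the antisense transcript A830052D11Rik and exons of Sorl1 share 185 bases with the antisense transcript Gm16214. Whether counting used the strand is not given in the sources used here, so reads of those bases cannot be told apart. Of the 50-base windows of Ms4a6d transcripts, 2.54% also occur in other genes, most in its paralog Ms4a6b, so its counts are uncertain to that extent.

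Spread also differed by gene. Picalm was the steadiest, with 97.004 CPM in its lowest library and 136 in its highest, a ratio of 1.40. Bin1 spanned 258 to 392 CPM, a ratio of 1.52, and Apoe 1288 to 2421 CPM, a ratio of 1.88. Cd33 spanned 3.31 to 15.3 CPM, a ratio of 4.62, and Plcg2 3.96 to 16.7 CPM, a ratio of 4.23. Ms4a6d had between 1 and 89 reads per library, so its values carry a large counting error.

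**Figure D2:**
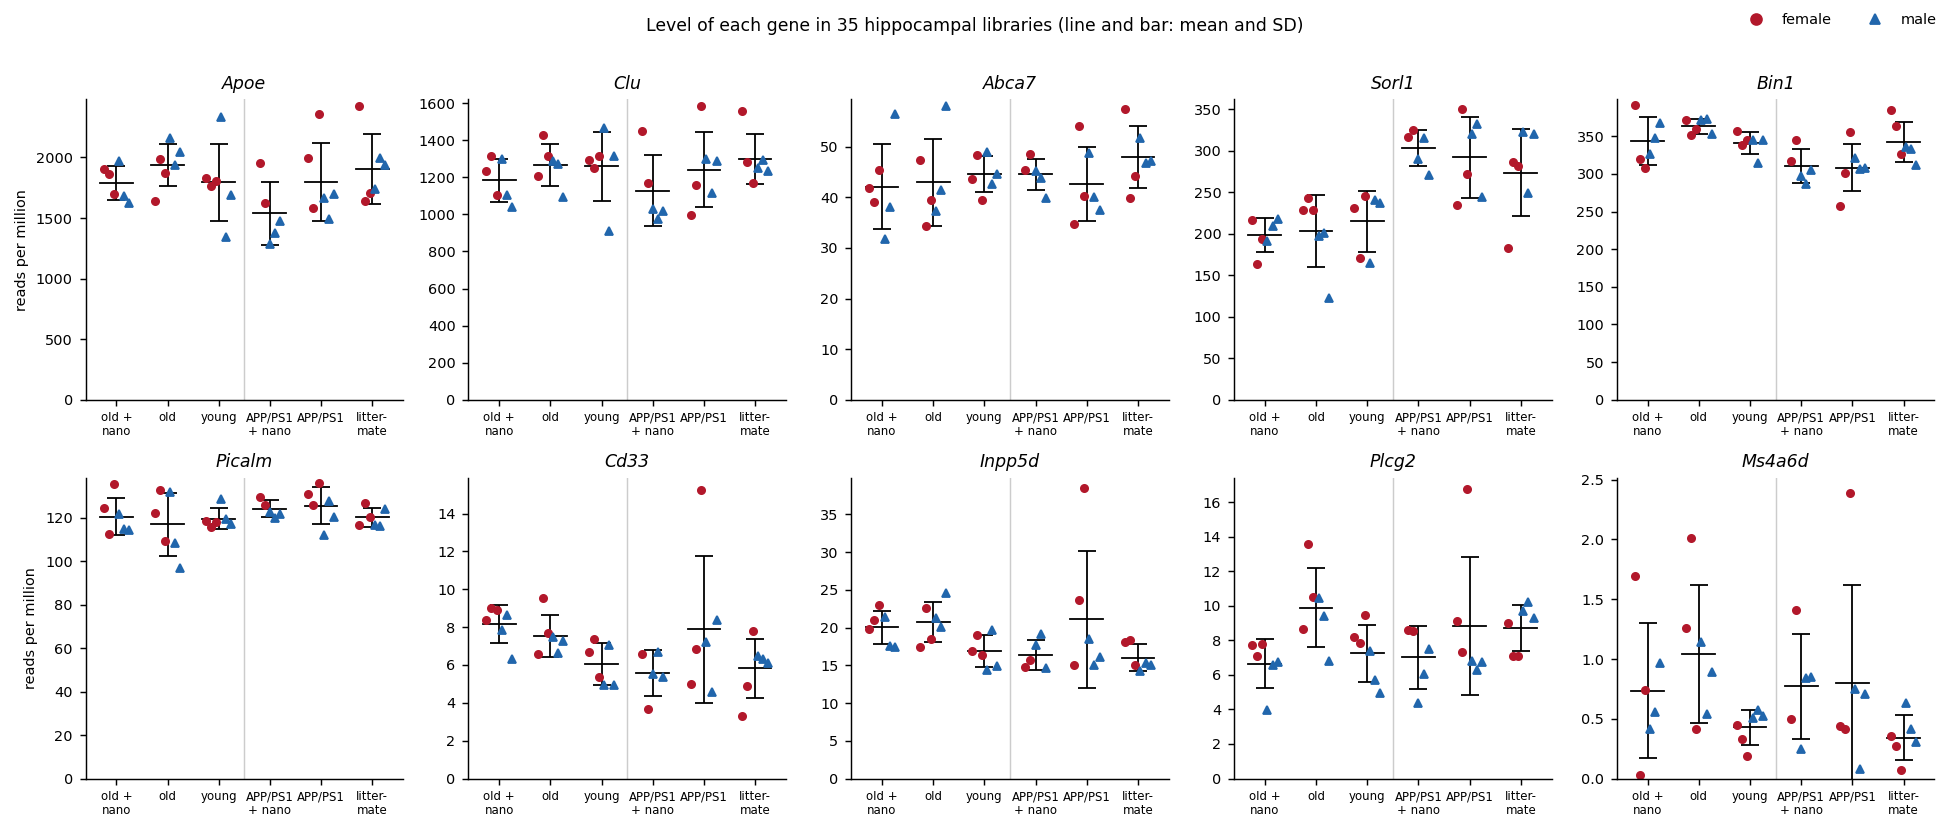
Level of each gene (CPM) in the 35 libraries (circles, females; triangles, males), with the mean and SD of each of the 6 groups. Neighbouring groups overlap for all 10 genes, and 1 APP/PS1 female stands highest for Cd33 at 15.3, Inpp5d at 38.5, Plcg2 at 16.7 and Ms4a6d at 2.39 CPM.

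When the 6 groups were ordered by mean CPM, each group's range met that of the group above it for all 10 genes. Sorl1 averages differed between the arms of the study. The gene averaged 303 ± 22.0 CPM in treated APP/PS1 (n = 5), 292 ± 48.7 in APP/PS1 and 274 ± 52.3 in littermate libraries (SD, n = 6 each). It averaged 199 ± 20.6 CPM in treated old, 204 ± 43.5 in old and 215 ± 36.8 in young libraries (SD, n = 6 each). The arms overlapped, with 183 to 350 CPM in the arm of 4-month mice and 122 to 245 CPM in the C57BL/6 arm. Their difference was not tested.

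The comparison of old with young mice asks what differs in the hippocampus between 8 and 18 months, and other differences between the cohorts cannot be told apart from age. A gene is called where its Benjamini-Hochberg adjusted p over all genes tested is under 0.05. With limma on log2 of the normalised count plus 1, none of the 10 genes was called, against 6 of 16626 genes tested (0.0361%). With the recovered reads, edgeR and DESeq2 called none of the 10 either, against 0.0361% and 0.74% of all genes. At an unadjusted p under 0.05 limma had 4 of the 10, against 6.13% of all genes, and these were Plcg2, Ms4a6d, Inpp5d and Cd33. The groups overlapped for all 10, while 0.505% of all genes had groups that did not. The median log2 fold change of the 10 was 0.12, against -0.00 over all genes tested, with 7 positive and 3 negative.

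Plcg2 encodes the phospholipase C that acts downstream of TREM2 and turns a phosphoinositide into messengers of calcium and diacylglycerol. Its lowest, median and highest normalised counts were 275, 403 and 541 in old mice, against 200, 295 and 382 in young mice. The groups overlapped between 275 and 382. The fitted ratio was 1.38 (95% limits 1.11 to 1.71), a log2 fold change of 0.46 ± 0.144 (SE), with adjusted p = 0.591 in limma and 0.140 to 0.9995 over the alternatives.

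Inpp5d encodes SHIP1, a phosphatase that removes the phosphoinositide made by PI3 kinase and so counters receptor signalling. It had 700, 839 and 994 normalised counts at the lowest, median and highest old library, against 542, 675 and 815 in young libraries. Its log2 fold change was 0.31 ± 0.114 (limma adjusted p = 0.691). Cd33, a receptor for sialic acids, had 265, 296 and 380 in old libraries, against 186, 244 and 293 in young libraries. The log2 fold change of Cd33 was 0.34 ± 0.136 (limma adjusted p = 0.756). For Inpp5d 4 of the 6 old libraries, and for Cd33 4 of the 6, lay above every young library.

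Ms4a6d, a membrane-spanning protein gene of the Ms4a cluster, had 16.9, 41.0 and 79.9 normalised counts at the lowest, median and highest old library, against 7.66, 18.8 and 23.9 in young libraries. Its log2 fold change was 1.14 ± 0.398 (limma adjusted p = 0.665), the largest of the 10 in size and also the one on the fewest reads. All 12 microglial markers had positive estimates with age (median log2 fold change 0.27) and summed to 430 to 587 CPM in old and 375 to 434 CPM in young libraries. With the microglial markers as a covariate, the log2 fold changes became 0.31 for Plcg2, 0.07 for Inpp5d, 0.04 for Cd33 and 0.76 for Ms4a6d. The estimates of Inpp5d and Cd33 were close to 0 in that fit, and those of Plcg2 and Ms4a6d smaller than without the covariate. Marker sums of old and young libraries overlapped only between 430 and 434 CPM, so marker level and age can hardly be separated here. The part of microglial content in these estimates was not tested.

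The lipid and endocytic genes differed little with age. Apoe had 66055, 79527 and 86225 normalised counts at the lowest, median and highest old library, against 55771, 71566 and 87832 in young libraries, with a log2 fold change of 0.14 ± 0.111. Clu, at 44299, 52044 and 56762 in old and 37845, 52726 and 55205 in young libraries, had one of 0.03 ± 0.0989. Bin1 averaged 14688 ± 505 in old and 13639 ± 589 normalised counts in young mice (SD, n = 6 each), a log2 fold change of 0.11 ± 0.0506 (limma adjusted p = 0.818). The 95% limits of Picalm, a log2 fold change of -0.18 to 0.13, of Sorl1, -0.43 to 0.28, and of Abca7, -0.30 to 0.18, all included 0. Old male 3 had the lowest Sorl1 count, 4960, the lowest Picalm count, 3932, and the highest Abca7 count, 2352, of the 12 libraries, and its striatal markers summed to 853 CPM, the highest of the old libraries. The part of tissue makeup in these 3 values was not tested.

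Gene lists around these 10 were read by their counts. Of 31 immune receptor and phosphoinositide signalling genes, 27 had positive estimates with age (median log2 fold change 0.37) and 13 reached an unadjusted p under 0.05, against 6.13% of all genes tested and a median of -0.00 over them. Of these Trem2, the lipid-sensing receptor, was the 1 called: it rose to 724 ± 102 normalised counts in old mice, against 423 ± 22.6 in young mice, a log2 fold change of 0.76 ± 0.0949 (limma adjusted p = 0.0100). It was not called without young female 1, where the limma adjusted p was 0.0513, nor with the microglial or the choroid plexus markers as a covariate, at adjusted p = 0.9995 and 0.147 and at log2 fold changes of 0.58 and 0.72. None of 26 lipoprotein genes, 35 clathrin endocytosis genes, 22 measured retromer and sorting receptor genes, 5 measured Ms4a family genes and 30 genes of other Alzheimer risk loci was called. Their medians were -0.05, -0.01, -0.03, 0.37 and 0.01. The smallest p among the lipoprotein genes belonged to Apod, an apolipoprotein of glia, at 0.57 ± 0.174, and Lrp8, an ApoE receptor, at -0.15 ± 0.0661. Among clathrin genes they belonged to the dynamins Dnm3 at -0.36 ± 0.138 and Dnm2 at 0.13 ± 0.0591, and among sorting genes to Snx27 at -0.10 ± 0.0503 and the retromer subunit Vps29 at 0.10 ± 0.0585. Ms4a6b stood at 0.71 ± 0.267 and Ms4a6c at 0.51 ± 0.424, and of the other risk loci Spi1, which encodes PU.1, at 0.62 ± 0.170 and the progranulin gene Grn at 0.23 ± 0.0728.

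The comparison of treated old with old mice asks what the nanoligomer changed at 18 months. Limma called none of the 10 and none of 16517 genes (0%), while 7.22% of genes had an unadjusted p below 0.05. Of the 10 genes, Plcg2 was the 1 at that level. EdgeR called 0% and DESeq2 0.0121% of all genes, and neither called any of the 10. The groups overlapped for all 10, while 0.254% of all genes had groups that did not. The median log2 fold change of the 10 was -0.07, against -0.00 over all genes tested.

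Plcg2 had 292, 269, 283, 150, 248 and 258 normalised counts in treated old libraries, against 326, 505, 401, 389, 364 and 257 in old libraries, in the order females 1 to 3 and males 1 to 3. All 6 treated values lay below 5 of the 6 old values, and old male 3 at 257 lay among them. The fitted ratio was 0.669 (95% limits 0.525 to 0.853), a log2 fold change of -0.58 ± 0.162 (limma adjusted p = 0.678; 0.234 to 0.938 over the alternatives). Leaving out each library in turn gave log2 fold changes of -0.66 to -0.46, and with microglial markers as a covariate it was -0.58. The summed microglial markers lay at 417 to 504 CPM in treated old and 430 to 587 CPM in old libraries, and 7 of the 12 had positive estimates.

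Ms4a6d, at 1.23, 23.9 and 63.9 normalised counts at the lowest, median and highest treated old library and 15.8, 38.3 and 74.6 in old libraries, had a log2 fold change of -0.87 ± 0.699. It was -0.19 without treated old female 2, the library with 1 read of the gene. The other microglial genes stayed near 0: Cd33 at 0.12 ± 0.111, with 308 ± 35.6 normalised counts in treated old and 284 ± 38.1 in old mice, and Inpp5d at -0.05 ± 0.0982, with 754 ± 73.1 in treated old and 782 ± 97.3 in old mice (SD, n = 6 each).

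Apoe averaged 67490 ± 5531 normalised counts in treated old and 73266 ± 6475 in old mice (SD, n = 6 each), with 95% limits of its log2 fold change of -0.30 to 0.06. Clu averaged 44600 ± 4512 in treated old and 47851 ± 4001 in old mice (SD, n = 6 each), with limits of -0.28 to 0.08. Bin1 averaged 12949 ± 1340 in treated old and 13728 ± 481 in old mice (SD, n = 6 each), with limits of -0.24 to 0.06. The log2 fold changes of Picalm, Sorl1 and Abca7 were 0.05, -0.01 and -0.04.

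No gene of the 6 lists was called with treatment in old mice. The immune list had 22 of 31 negative estimates (median -0.08), the lipoprotein list 17 of 26 (median -0.05), the clathrin list 22 of 35 (median -0.02) and the sorting list 11 of 22 (median 0.01). Trem2 had 545 ± 64.8 normalised counts in treated old and 676 ± 95.01 in old mice (SD, n = 6 each), a log2 fold change of -0.31 ± 0.111. The kinase gene Prkcd had 604 ± 219 in treated old and 1943 ± 2030 in old mice, a log2 fold change of -1.24 ± 0.478. Its SD in old mice exceeded its mean there, so this estimate is uncertain. The lipoprotein-remodelling genes Lcat and Pltp stood at -0.31 ± 0.0946 and -0.35 ± 0.128. Dnm3 stood at 0.27 ± 0.0961 and the epsin gene Epn2 at -0.20 ± 0.0951. The sorting receptor genes Sorcs1 and Sorcs3 stood at 0.52 ± 0.248 and 0.17 ± 0.0947. Of 5 Ms4a family genes 4 were negative, with Tmem176a at 0.28 ± 0.0913 and Ms4a6b at -0.54 ± 0.323. Of 30 genes of other risk loci 18 were negative, with Rabep1 at 0.20 ± 0.0475 and the transcription factor gene Mef2c at 0.70 ± 0.278. All 10 hippocampal markers had negative estimates in this comparison (median -0.73), as had all 10 oligodendrocyte markers (median -0.21). Striatal markers were positive in 9 of 10 (median 0.61). The part of tissue makeup in the values of this comparison was not tested.

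The comparison of APP/PS1 with littermate mice asks what the transgenes change at 4 months. Limma called 8 of 16475 genes (0.0486%) and none of the 10. EdgeR called 0.0486% and DESeq2 1.54% of all genes, and neither called any of the 10. For Ms4a6d DESeq2 gave a log2 fold change of 1.19 but no p, so it did not test that gene here. At an unadjusted p under 0.05 limma had none of the 10, against 10.2% of all genes. The groups overlapped for all 10, while 0.85% of all genes had groups that did not. The median log2 fold change of the 10 was 0.01, against 0.00 over all genes tested, with 5 positive and 5 negative.

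Inpp5d had 516, 880, 1388, 690, 567 and 602 normalised counts in APP/PS1 libraries, against 646, 681, 548, 522, 558 and 553 in littermate libraries, in the order females 1 to 3 and males 1 to 3. Female 3 of the APP/PS1 group was the highest and female 2 of that group the next, and the other 4 APP/PS1 libraries lay between 516 and 690, beside 522 to 681 in littermate libraries. The log2 fold change was 0.32 ± 0.185, and 0.15 ± 0.129 without that library. Cd33 had 172, 255, 551, 270, 174 and 313 in APP/PS1, against 118, 182, 284, 238, 232 and 223 in littermate libraries. For Cd33 the log2 fold change was 0.37 ± 0.287, and 0.13 ± 0.226 without APP/PS1 female 3.

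Plcg2 turned on the same library. It had 313, 273, 604, 254, 239 and 252 normalised counts in APP/PS1, against 321, 262, 258, 356, 372 and 341 in littermate libraries. Its log2 fold change was -0.05 ± 0.211, and -0.26 ± 0.131 without APP/PS1 female 3 (limma adjusted p = 0.959 and 0.428; 0.428 to 0.999 over the alternatives). Ms4a6d had 15.2, 15.6, 86.3, 28.1, 3.05 and 26.5 in APP/PS1, against 12.7, 10.2, 2.54, 23.3, 15.3 and 11.1 in littermate libraries. Its log2 fold change was 0.81 ± 0.687, and 0.34 ± 0.625 without that library.

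APP/PS1 female 3 was the highest of all 35 libraries for 6 of the 10 genes: Cd33, Inpp5d, Plcg2, Ms4a6d, Clu and Picalm. Against the median of the other 5 APP/PS1 libraries it stood 2.23-fold higher for Cd33, 2.38-fold for Inpp5d, 2.46-fold for Plcg2 and 5.42-fold for Ms4a6d. Apoe stood 1.42-fold higher, Clu 1.37-fold and Picalm 1.08-fold, while Abca7 stood at 1.001 and Sorl1 at 0.846 of that median. Its 12 microglial markers summed to 838 CPM, against 358 to 448 CPM in the other 5 APP/PS1 libraries, 1.96-fold their median, and its astrocyte markers to 8995 CPM, the highest of the 35 libraries. Its 10 border macrophage markers summed to 65.6 CPM, the highest of the 35 libraries, against 24.95 to 29.9 CPM in the other 5 APP/PS1 libraries, and their part in these values was not tested. With the microglial markers as a covariate the log2 fold changes became 0.13 for Inpp5d, 0.15 for Cd33, -0.23 for Plcg2 and 0.30 for Ms4a6d. Without the library they were 0.15, 0.13, -0.26 and 0.34 in the same order. These fits are not separate checks, since that library had the highest microglial marker sum of the 35. The part of microglial content in its values was not tested. With this library left out limma called 256 genes in place of 8, and still none of the 10.

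**Figure D3:**
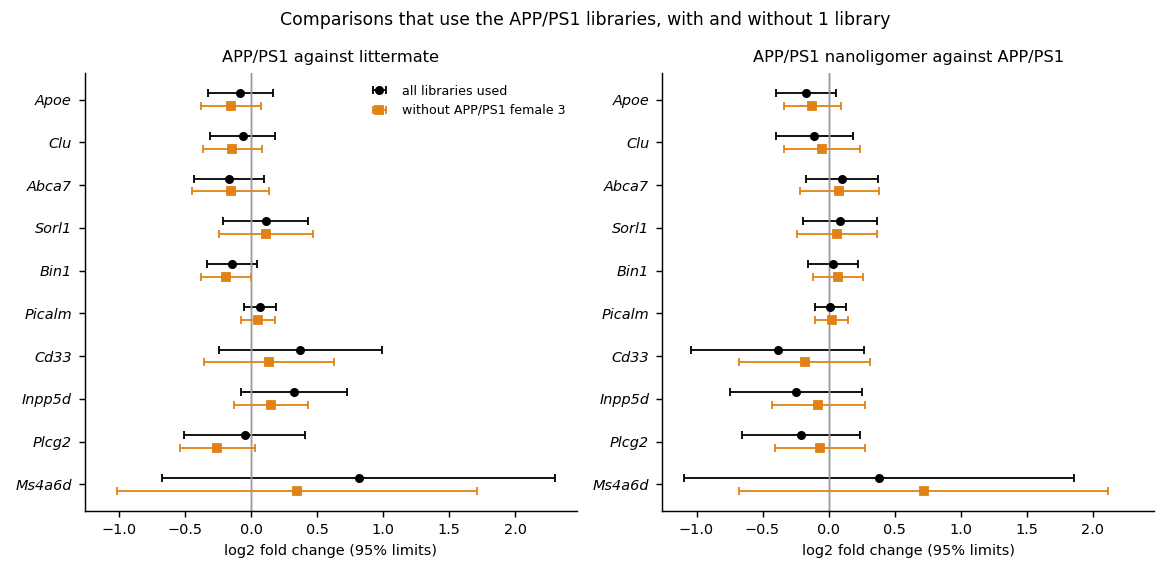
Log2 fold changes with 95% limits in the 2 comparisons that use the APP/PS1 libraries, with all libraries used (black) and without APP/PS1 female 3 (orange). In the left panel Cd33 moves to 0.13, Inpp5d to 0.15 and Plcg2 to -0.26, and the right panel shows Cd33 at -0.18, Inpp5d at -0.08 and Plcg2 at -0.07 without it.

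Among the lipid genes, Apoe averaged 65780 ± 10309 normalised counts in APP/PS1 and 69520 ± 9660 in littermate mice, and Clu 45639 ± 7672 in APP/PS1 and 47355 ± 4382 in littermate mice (SD, n = 6 each). Their 95% limits were -0.33 to 0.17 for Apoe and -0.31 to 0.18 for Clu on the log2 scale. Abca7, an exporter of phospholipid, averaged 1567 ± 300 in APP/PS1 and 1747 ± 206 in littermate mice (SD, n = 6 each; log2 fold change -0.17 ± 0.123). Bin1 averaged 11330 ± 1329 in APP/PS1 and 12503 ± 904 in littermate mice (SD, n = 6 each; log2 fold change -0.15 ± 0.0868). APP/PS1 female 1 had the lowest Bin1 count, 8866, the lowest Clu count, 34348, and the lowest Abca7 count, 1195, of the 12 libraries. Its striatal markers summed to 3085 CPM, against 227 to 265 CPM in littermate libraries. Its neuronal markers summed to 7049 CPM and its astrocyte markers to 5373 CPM, each the lowest of the 35 libraries. Without it the log2 fold change of Bin1 was -0.07, that of Clu 0.02 and that of Abca7 -0.09. Bin1 moved the other way, to -0.19 ± 0.0865, without the APP/PS1 female that stood highest for the microglial signalling genes. Its 95% limits were then -0.38 to -0.0006, with limma adjusted p = 0.362. Picalm and Sorl1 had log2 fold changes of 0.07 ± 0.0558 and 0.11 ± 0.149.

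No gene of the 6 lists was called with the transgenes. The immune list had 21 of 30 positive estimates (median 0.08), with Lat2, an adaptor gene of leukocyte receptor signalling, at 0.46 ± 0.174 and Dok3 at -0.35 ± 0.142. The lipoprotein list had 13 of 26 (median -0.01), with the lipoprotein lipase gene Lpl at -0.59 ± 0.188 and Apod at -0.29 ± 0.0931. The clathrin list had 18 of 35 (median 0.01), with Epn2 at -0.21 ± 0.0646 and Dnm3 at 0.48 ± 0.184. The sorting list had 14 of 22 (median 0.04): Sorcs1 averaged 1547 ± 516 normalised counts in APP/PS1 and 779 ± 189 in littermate mice (SD, n = 6 each), a log2 fold change of 0.96 ± 0.171 (limma adjusted p = 0.0957), and Sorcs3 stood at 0.30 ± 0.0899. The Ms4a family had 4 of 5, with Ms4a7 at 0.81 ± 0.996 and Tmem176a at 0.03 ± 0.176. The other risk loci had 21 of 30 (median 0.04), with Adamts1 at -0.57 ± 0.132 and Usp6nl at 0.37 ± 0.113. All 10 striatal markers had positive estimates in this comparison (median 1.27) and 9 of 10 hippocampal markers negative ones (median -0.98), and the part of tissue makeup in these values was not tested.

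The comparison of treated APP/PS1 with APP/PS1 mice asks what the nanoligomer changed in the transgenic mice, with 5 against 6 libraries. Limma called none of 16124 genes (0%), while 2.96% had an unadjusted p below 0.05, with none of the 10 among them. EdgeR called 0% and DESeq2 0.0434% of all genes, and neither called any of the 10. The groups overlapped for all 10, while 0.31% of all genes had groups that did not. The median log2 fold change of the 10 was -0.05, against -0.00 over all genes tested. This comparison and that with littermates share the APP/PS1 libraries, so a high APP/PS1 library moves both, in opposite directions.

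Cd33 had 182, 99.7, 159, 193 and 151 normalised counts in treated APP/PS1 libraries (females 1 and 2, males 1 to 3), against 130, 193, 411, 204, 131 and 236 in APP/PS1 libraries. Its log2 fold change was -0.39 ± 0.299, and -0.18 ± 0.224 without APP/PS1 female 3. Inpp5d averaged 462 ± 67.0 in treated APP/PS1 (n = 5) and 582 ± 243 in APP/PS1 mice (SD, n = 6), a log2 fold change of -0.24 ± 0.228, or -0.08 ± 0.158 without that library. Plcg2 averaged 196 ± 46.4 in treated APP/PS1 (n = 5) and 243 ± 104 in APP/PS1 mice (SD, n = 6), a log2 fold change of -0.21 ± 0.204, or -0.07 ± 0.153 without it. Ms4a6d stood at 0.38 ± 0.674, or 0.72 ± 0.631 without it. The 12 microglial markers summed to 380 to 419 CPM in treated APP/PS1 and 358 to 838 CPM in APP/PS1 libraries.

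Apoe had 53917, 43676, 36958, 39861 and 41412 normalised counts in treated APP/PS1 libraries, against 51650, 44732, 63503, 47036, 42431 and 47883 in APP/PS1 libraries. Of the treated libraries 3 lay below every APP/PS1 library, and treated female 1 lay above 5 of the 6. The log2 fold change was -0.17 ± 0.104 (limma adjusted p = 0.997). Clu stood at -0.11 ± 0.133, Bin1 at 0.03 ± 0.0875, Picalm at 0.01 ± 0.0537, Sorl1 at 0.09 ± 0.128 and Abca7 at 0.10 ± 0.126. With the library of low depth kept in, the values became -2.76 for Apoe, -2.61 for Clu and -2.15 for Bin1, and still none of the 10 was called. That library had no read of Apoe, Clu or Bin1 but 117 of Picalm. In the 35 libraries used Apoe averaged 1802 CPM and Picalm 121 CPM. The cause of the missing reads was not tested. Choroid plexus markers summed to 64.1 to 4029 CPM in treated APP/PS1 and 18.6 to 63.6 CPM in APP/PS1 libraries, with treated female 1, the highest library for Apoe and Clu in its group, also the highest for these markers. With those markers as a covariate Apoe stood at -0.30 and Clu at -0.34. All 10 astrocyte markers had negative estimates in this comparison (median -0.15), and their part in the values of Apoe and Clu was not tested.

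No gene of the 6 lists was called with treatment in APP/PS1 mice. The immune list had 26 of 30 negative estimates (median -0.15), with Lat2 at -0.81 ± 0.225 and the kinase gene Btk at -0.86 ± 0.354. The lipoprotein list had 17 of 26 (median -0.03), with Apod at -0.15 ± 0.0746 and the sterol-binding protein gene Osbp at 0.09 ± 0.0539. The clathrin list had 12 of 35 (median 0.02), with the uncoating factor gene Dnajc6 at 0.15 ± 0.0691 and the adaptor subunit gene Ap2s1 at 0.12 ± 0.0663. The sorting list had 13 of 22 (median -0.03), with Rab11a at 0.13 ± 0.0576 and Sorcs3 at -0.18 ± 0.0908. The Ms4a family had 2 of 3, with Tmem176b at -0.29 ± 0.164 and Tmem176a at -0.19 ± 0.190, and the other risk loci 19 of 30 (median -0.06), with Epha1 at 1.17 ± 0.453 and Cr1l at -0.37 ± 0.146. Btk averaged 20.9 ± 6.33 normalised counts in treated APP/PS1 (n = 5) and 41.2 ± 22.1 in APP/PS1 mice (SD, n = 6). Microglial markers were negative in 11 of 12 (median -0.19). The APP/PS1 libraries include female 3, with the highest microglial marker sum, and its part in the immune list was not tested.

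**Figure D4:**
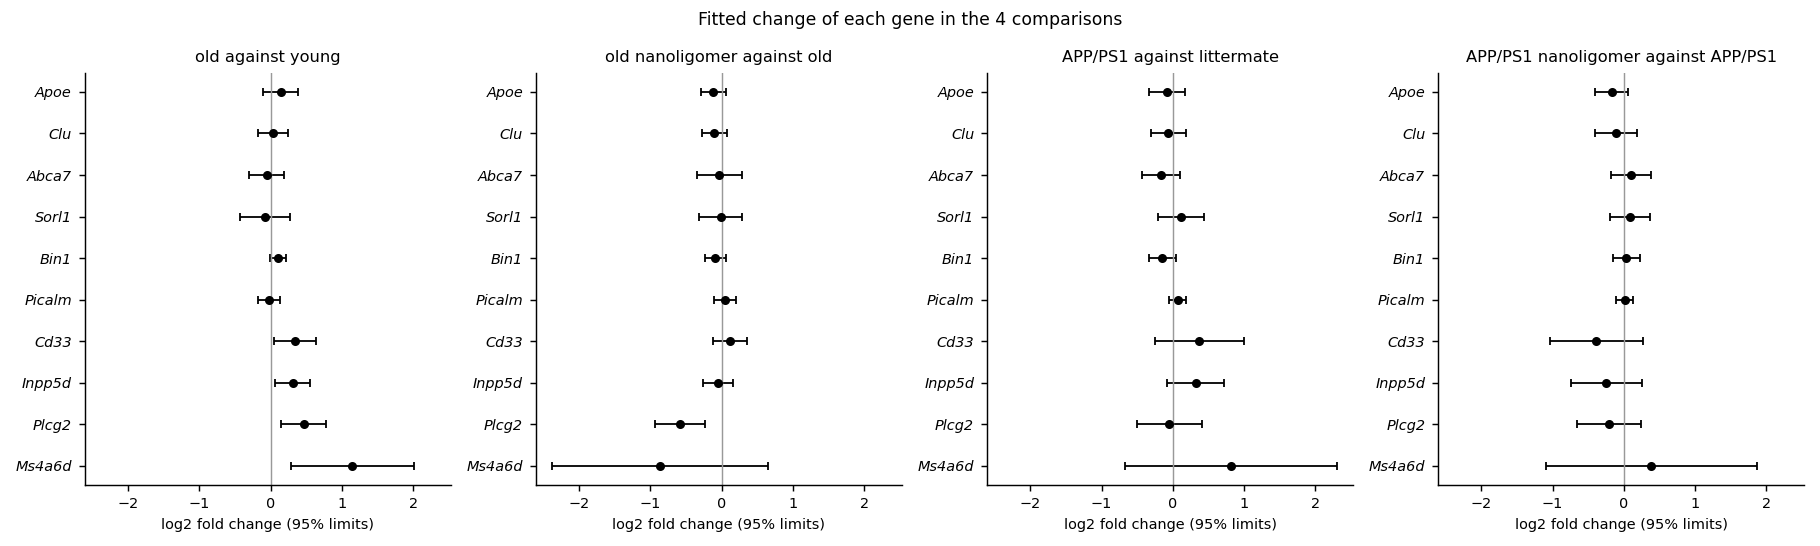
Log2 fold changes of the 10 genes with 95% limits in the 4 comparisons, positive where the first-named group is higher. Plcg2 stands at 0.46 with age and -0.58 with treatment in old mice, and the limits of Apoe, Clu, Abca7, Sorl1, Bin1 and Picalm include 0 in all 4 comparisons.

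Old mice were in both comparisons of the C57BL/6 arm, so the values of Plcg2, 0.46 with age and -0.58 with treatment, share 6 libraries and were not set against each other in a test. The differences between effects that share no library were tested in 1 fit of 24 libraries or 23. The treatment effect in APP/PS1 mice less that in old mice was called for none of the 10 and for none of 15990 genes in limma or edgeR (0% each), and 4.35% had an unadjusted p below 0.05, with none of the 10 among them. For Plcg2 that difference was 0.37 ± 0.266 on the log2 scale, and 0.51 ± 0.228 without APP/PS1 female 3 (limma adjusted p = 0.918 and 0.830). The transgene effect less the age effect was called for 0.0429% of genes in limma and in edgeR and for none of the 10. At an unadjusted p under 0.05 stood 11.8% of genes and 1 of the 10, Bin1. Its difference was -0.26 ± 0.0991 (limma adjusted p = 0.344), beside -0.15 with the transgenes and 0.11 with age. Leaving out each library in turn gave -0.30 (without APP/PS1 female 3) to -0.18 (without APP/PS1 female 1). For Plcg2 the difference was -0.51 ± 0.266, and -0.72 ± 0.196 without APP/PS1 female 3 (limma adjusted p = 0.451 and 0.117).

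Effects were also fitted within each sex, with 3 libraries a group, and their difference tested. The exception was treated APP/PS1 females, where only females 1 and 2 remained. The male effect less the female effect was called for no gene in limma or edgeR (0% in all 4 comparisons). At an unadjusted p under 0.05 stood 4.39% of genes with age, 4.71% with treatment in old mice, 5.1% with the transgenes and 4.52% with treatment in APP/PS1 mice. None of the 10 was among them with age or with treatment in APP/PS1 mice. With the transgenes Plcg2 was the 1, at a log2 fold change of 0.42 in females and -0.52 in males, a difference of -0.94 ± 0.345 (limma adjusted p = 0.847). Without APP/PS1 female 3 the difference was -0.59 ± 0.211. With treatment in old mice it was Sorl1, at -0.31 in females and 0.28 in males, a difference of 0.59 ± 0.238 (limma adjusted p = 0.914). Without old male 3, whose Sorl1 count was the lowest, that difference was 0.35.

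Males less females, fitted over both groups of a comparison, was called for 0.0662% of genes in limma and 0.0601% in edgeR over old and young mice, and for 0.0486% in both tools over APP/PS1 and littermate mice. None of the 10 was called. At an unadjusted p under 0.05 stood 7.5% of genes over old and young mice and 1 of the 10, Plcg2, at -0.41 ± 0.144 (limma adjusted p = 0.614). Leaving out each library in turn gave -0.49 to -0.34. Over APP/PS1 and littermate mice 6.13% of genes and none of the 10 did, and Plcg2 stood at -0.12 ± 0.211.

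**Figure D5:**
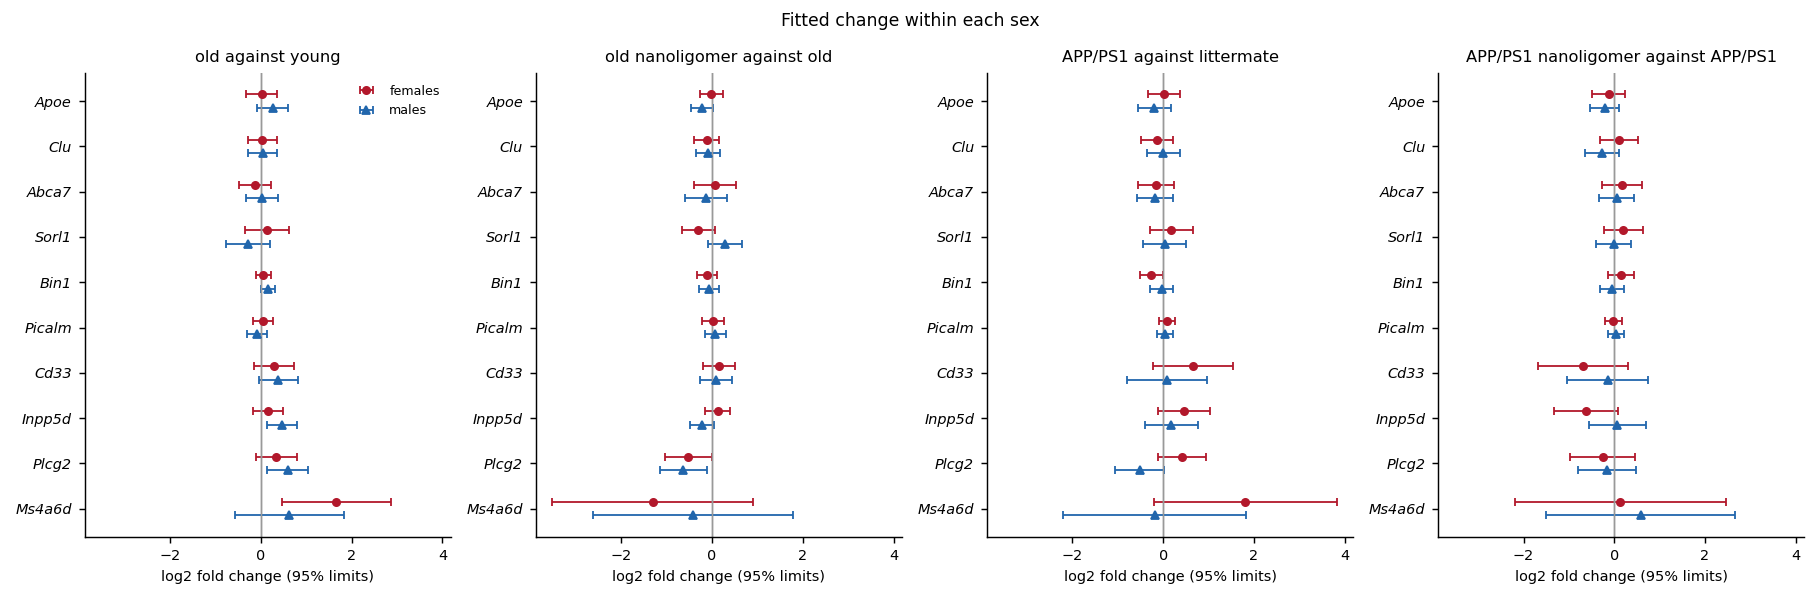
Log2 fold changes with 95% limits fitted within females (red circles) and males (blue triangles) in the 4 comparisons. Treated APP/PS1 females are females 1 and 2 only. Plcg2 with the transgenes stands at 0.42 in females and -0.52 in males, and Sorl1 with treatment in old mice at -0.31 in females and 0.28 in males.

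The genes whose levels most resembled each of the 10 were found from log2 CPM less the group mean over 35 libraries, and their likeness is a description. Inpp5d was most like the immunoglobulin Fc receptor gene Fcgr3 (Pearson r = 0.856, Spearman rho = 0.687), followed by Cd37 and Lag3. That r was 0.674 without the 2 libraries farthest from the median of Inpp5d, which include APP/PS1 female 3. Cd33 was most like P2ry13, a microglial nucleotide receptor gene (r = 0.756, rho = 0.640, and r = 0.668 without 2 libraries), then Aspg and Hpgd. Ms4a6d was most like the lysosomal protease gene Ctss (r = 0.703, rho = 0.545, and r = 0.525 without 2 libraries), then Rps27l and Ifit1.

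Plcg2 had other neighbours. It was most like the urea transporter gene Slc14a1 (r = 0.818, rho = 0.820, and r = 0.815 without 2 libraries), then the complement gene C4b and Chst11. Apoe was most like Ech1 (r = 0.893, rho = 0.830, and r = 0.871 without 2 libraries), then Tmem176b and Tmbim6, and Clu most like Fxyd1 (r = 0.816, rho = 0.709, and r = 0.722 without 2 libraries), then Nde1 and Pbxip1. Sorl1 was most like Frrs1l (r = 0.882, rho = 0.808, and r = 0.797 without 2 libraries), then Mib1 and Frmpd4. Bin1 was most like Npdc1 (r = 0.744, rho = 0.649, and r = 0.722 without 2 libraries), then Ccdc85b and Spns2, Picalm most like Cops2 (r = 0.763, rho = 0.756, and r = 0.716 without 2 libraries), then Hspd1, and Abca7 most like Tmem25 (r = 0.761, rho = 0.653, and r = 0.645 without 2 libraries), then Mroh1 and Abtb1. The libraries share depth, tissue makeup and the scaling by total reads, each of which can move genes together.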

How the data were processed

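The authors deposited 4 tables of gene-level signal, counts divided by a size factor, each scaled apart for 12 libraries. Per the labels' protocols, polyadenylated hippocampal RNA was sequenced, and STAR, DESeq2 and mm10 are named, without roles, in the submitters' processing notes. The sources used here give no counting tool, annotation or strand setting. Low values were whole multiples of a per-library step, which gave back whole reads for 100% of values within 0.001 reads, and CPM and RPKM come from these.

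Each table was fitted alone with limma 3.58.1 (R 4.3.3) on log2(deposited value + 1), with sex as a term, over genes averaging 10 or more, and Benjamini-Hochberg adjusted over all genes. Fold changes on this scale understate changes of low genes. The 2 joint contrasts used 1 fit of tables sharing no library. EdgeR 4.0.16 and DESeq2 1.42.0 on recovered reads, other scalings, filters and covariates, and leaving out each library were alternatives. The code was checked on simulated data. The members, lists and tests were chosen with earlier results of these data known. All 10 genes are named throughout; of each list, the called genes (at most 4) are named, or the 2 with the smallest p. Each gene's 3 most alike genes are named by Pearson's r, except 1 that is not reported here. The treated APP/PS1 library of low depth was left out.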

Additional observations from a re-analysis of the deposited data

Results flagged for a closer look

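In 8 of the 60 sets formed by a gene and a group, 1 library lay far from the others by Dixon's criterion, which chance meets in about 1 of 20 sets. APP/PS1 female 3 stood apart for 4 genes: Cd33 at 15.3 CPM against 4.59 to 8.38 in the other libraries of its group, Inpp5d at 38.5 CPM against 14.98 to 23.6, Plcg2 at 16.7 CPM against 6.31 to 9.10, and Ms4a6d at 2.39 CPM against 0.0805 to 0.753. Treated old male 1 stood low for Plcg2, at 3.96 CPM against 6.56 to 7.79. Old female 2 stood high for Cd33, at 9.55 CPM against 6.57 to 7.68. Littermate female 1 stood high for Clu, at 1558 CPM against 1171 to 1292, and young male 1 for Picalm, at 129 CPM against 116 to 120.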

How the results depend on the processing

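None of the 10 genes was called under any alternative that gave a p for it. DESeq2 gave none for Ms4a6d with the transgenes. The smallest adjusted p was 0.140 over the 40 effects of the 4 comparisons, and 0.117 over the sex terms and joint differences without single libraries (Plcg2, transgene less age, without APP/PS1 female 3). Of 880 alternative values of the 40 effects, 845 kept their sign and 35, in 16 effects, had the other sign. Counts of called genes varied more. With age, 6 genes became 123 with DESeq2, 1 with microglial markers as a covariate, and 4 to 11 without single libraries. Treatment in old mice gave 2 with DESeq2. With the transgenes, 8 became 253 with DESeq2, 199 and 2 with microglial and choroid plexus markers as covariates, and 6 to 256 without single libraries (256 without APP/PS1 female 3, 21 without APP/PS1 female 1). Treatment in APP/PS1 mice gave 1 without the filter and 7 with DESeq2. Without single libraries the sex differences gave 0 to 2 with age, 0 to 1 with treatment in old mice, 0 to 158 with the transgenes (158 without APP/PS1 female 2) and 0 to 1 with treatment in APP/PS1 mice; the treatment difference gave 0 to 2 and the transgene less age difference 6 to 20. The causes were not tested.

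Same-numbered libraries showed no strong shared deviation (correlations -0.247 to 0.294). Such correlations cannot exclude a pairing, and the main fits used none. With the replicate block 1, 0, 10 and 0 genes were called in the 4 comparisons, and Trem2 with age had a limma adjusted p of 0.0831.

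Signs turned at small effects. With the microglial covariate Abca7 stood at 0.13 with age and 0.0022 with treatment in old mice, and Inpp5d at 0.013 with treatment in APP/PS1 mice. In that comparison the choroid plexus covariate gave Bin1 -0.017, Sorl1 -0.025 and Inpp5d 0.16, and the library of low depth gave Bin1 -2.15, Picalm -0.10, Sorl1 -0.14, Abca7 -0.89 and Ms4a6d -0.40. Without single libraries, age gave Clu -0.044 to 0.077, Picalm -0.068 to 0.026, Sorl1 -0.18 to 0.050 and Abca7 -0.15 to 0.0037. Treatment in old mice gave Picalm -0.0022 to 0.091, Sorl1 -0.15 to 0.064, Abca7 -0.13 to 0.057 and Inpp5d -0.10 to 0.0062. The transgenes gave Clu -0.14 to 0.021 and Plcg2 -0.26 to 0.015, and treatment in APP/PS1 mice Bin1 -0.033 to 0.071, Picalm -0.015 to 0.033 and Ms4a6d -0.094 to 0.72. Depth limits Ms4a6d, with 1 to 89 reads a library.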
